A study of Homo sapiens with 21 samples.

Results

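Gene expression after 10 days of TGFβ (d10) was compared with that after 1 day (d1) in HMLE cells, an immortalized line of human mammary epithelial cells, over the genes with a mean normalized value of at least 10 in the 6 libraries involved. This rule kept 13059 of 23201 gene symbols; 5013 of the others had no read in these libraries, and 5129 had reads but stayed under the minimum. The last genes left out had means of 9.99 (TXNDC5) and 9.995 (NPFF), and the first kept, PABPC1P2 and AQP6, had means of at most 10.01. The series is an RNA-seq time course with 3 libraries at each of 7 timepoints, namely untreated cells (d0) and days 1, 4, 7, 10, 15 and 20 of TGFβ. Both groups compared here were HMLE cells seeded at the same density and exposed to TGFβ; their labels differ in the length of exposure, and the dose is not given in the sources used here. Untreated cells were measured at day 0 alone, so exposure to TGFβ and time in culture cannot be told apart. The comparison sets mid exposure against early exposure, at timepoints where the genes of the cell cycle are close in level.

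TGFβ is a secreted ligand whose receptor kinases phosphorylate SMAD2 and SMAD3, which enter the nucleus with SMAD4 and switch on matrix, cytoskeletal and feedback genes. In epithelial cells prolonged exposure can set off an epithelial-to-mesenchymal transition (EMT), in which transcription factors of the ZEB, SNAI and TWIST families repress junction and polarity genes and cells take on mesenchymal cadherins, intermediate filaments and a collagen-rich matrix. Mammary basal cells, which HMLE cells resemble, make the keratins KRT5 and KRT14 and depend on the transcription factor TP63.

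The 3 d1 libraries held 20313984 to 21086104 reads and the 3 d10 libraries 21695744 to 22245237, within the 18847917 to 22667754 of the whole series. Libraries of a timepoint differed little more than sequencing noise gives (mean chi-square per gene between 2 libraries of the same timepoint 1.416 to 1.788 at d1 and d10). The study describes them as biological triplicates but the columns carry no culture or replicate number, so p-values measure the spread between these libraries, which may be technical. All 9 basal markers were expressed at both timepoints, KRT5 at 148585, 146186 and 142371 at d1 and 102501, 100457 and 100869.9 at d10. Of 13 luminal markers 8 were high enough to be tested, among them KRT18 at 7614, 7292 and 7353 at d1 and 7412, 7022 and 7203 at d10, and PGR, ELF5 and KIT had no read in any of the 6 libraries. Of 8 endothelial markers 3 stayed at or below 3 reads, among them CDH5, and 3 were high enough to be tested. None had more than 21 reads in a library. The endothelial TIE1, too low to be tested, had values of 1.05, 0 and 1.98 at d1 and 18.9, 13.6 and 8.8 at d10. The 3 endothelial markers tested had log2 fold changes (d10 against d1) of -0.848 to 0.161, with a median of -0.537. Among them ERG had values of 20.9, 18.5 and 20.8 at d1 and 12.9, 8.75 and 10.8 at d10. The leukocyte marker PTPRC had at most 1 read in a library. In all, 8 of 12 leukocyte markers stayed at or below 3 reads, while CSF1R and CD68 were detected and lower at d10 (CSF1R 827, 798 and 673 at d1 and 385, 438 and 482 at d10). Among 7 adipocyte markers ADIPOQ had at most 10 reads in a library, and 2 were high enough to be tested. Of these the lipid carrier FABP4 rose from a mean of 35.4 to 81.5. The other, PLIN4, did not rise, with values of 25.1, 15.4 and 28.8 at d1 and 18.9, 18.5 and 16.6 at d10.

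Across the series the d1 and d10 profiles were the closest of all 21 pairs of timepoints. The root mean square difference between their timepoint means was 0.384 on the log2(value + 1) scale over 13343 genes, below d10 against d20 at 0.43 and d4 against d7 at 0.438. It was 0.76 between d7 and d10 and 0.972 between d10 and d15. In a ranking by distance d10 thus stood nearer to d1 than to either of its neighbours in time, as the bar chart of timepoint distances shows; these distances are a description without a test, and d7 holds 1 library that stands apart from the other two.

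**Figure D1:**
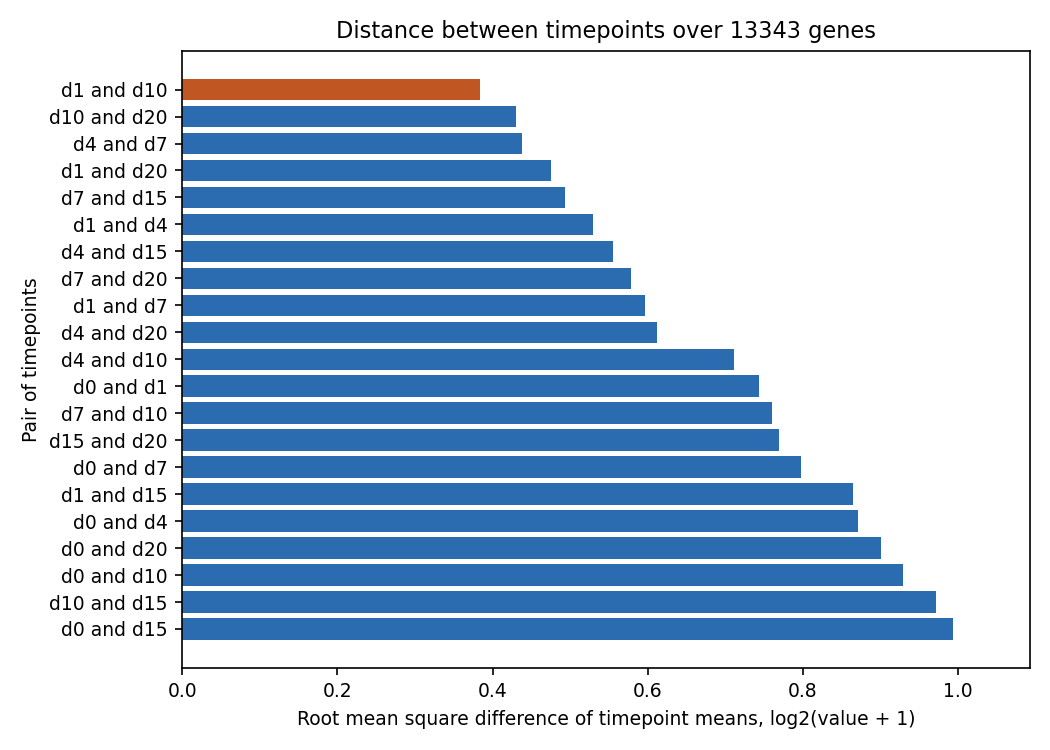
Root mean square difference between the means of each pair of timepoints on the log2(value + 1) scale, over 13343 genes; each bar is 1 of the 21 pairs and the pair d1 and d10 is in orange. The d1 and d10 pair has the shortest bar (0.384) and d0 and d15 the longest (0.993).

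Between these near profiles a small set of genes separated far. With limma, 86 genes were higher at d10 (0.659% of those compared) and 274 were lower (2.1%), at an adjusted p below 0.05 and a change of at least 2-fold. These genes are called higher or lower below. Without a minimum fold, 3599 genes passed the test as higher (27.6%) and 2717 as lower (20.8%), and the libraries of d1 and d10 did not overlap for 7152 genes (54.8%). Over the genes compared, the log2 fold change had a median of 0.021 and its size a median of 0.143. Most differences past the test were smaller than 2-fold, and a gene list is read against these shares. Log2 fold changes are d10 against d1 on the log2(value + 1) scale, which understates the change of low genes, and where a plain fold is given for a gene it is the ratio of the mean values.

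**Figure D2:**
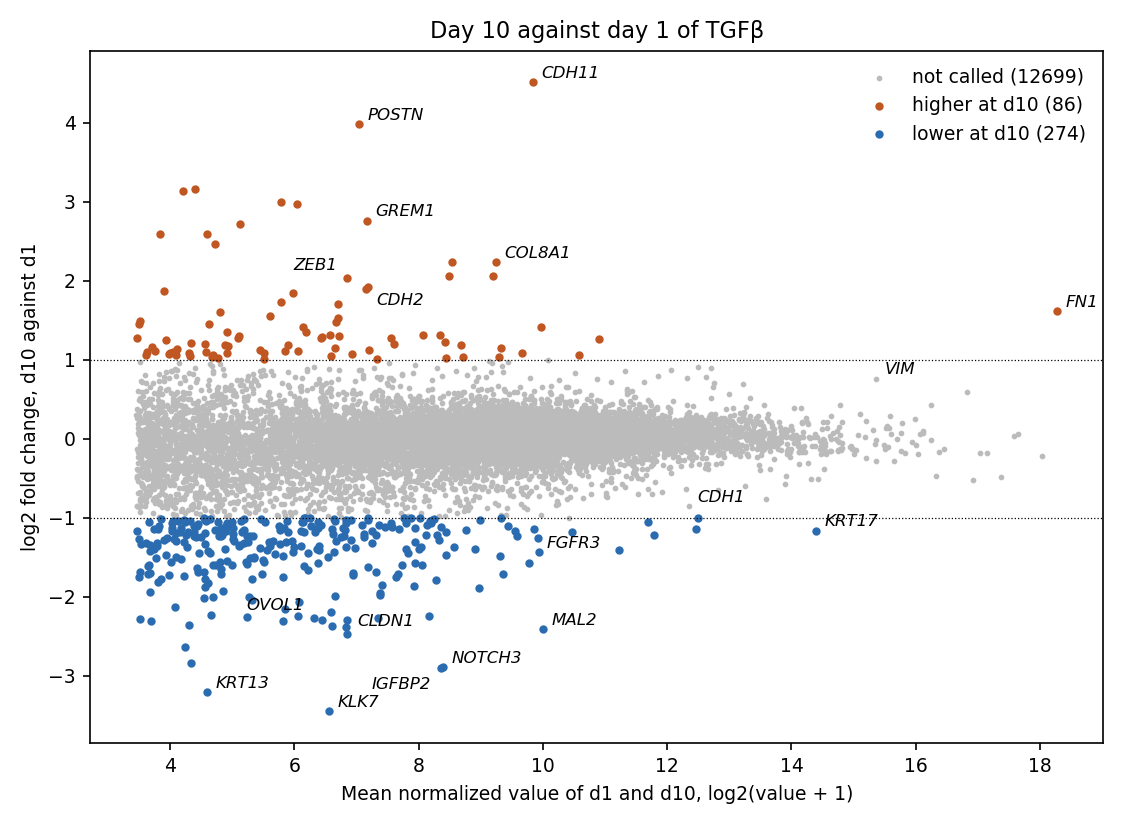
Log2 fold change of each of the 13059 genes at d10 against d1 over its mean normalized value; orange points are the 86 genes called higher, blue points the 274 called lower, gray points the rest, and dotted lines mark a 2-fold change. CDH11 and POSTN lie farthest above 0 and KLK7 and KRT13 farthest below, while FN1 is the called gene with the highest level.

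Several mesenchymal adhesion genes were called higher at d10. In these bulk libraries a shift in the share of a kind of cell and a change of RNA per cell cannot be told apart. Of 19 genes of mesenchymal cytoskeleton, adhesion and surface tested, 4 were called higher (CDH11, CDH2, FN1 and NCAM1) and none lower, with a median log2 fold change of 0.217. CDH11, a cadherin of mesenchymal cells, had values of 84.7, 67.7 and 76.4 in the d1 libraries and 1739.6, 1732 and 1810.0 in the d10 libraries. It thus rose 23.1-fold (log2 fold change 4.52 ± 0.071 (SE), adjusted p = 1.36e-29), the largest increase of all genes compared. CDH2, the N-cadherin whose gain marks EMT, had values of 60.7, 58.5 and 58.5 at d1 and 211, 234 and 228 at d10 (log2 fold change 1.90 ± 0.11 (SE), adjusted p = 3.28e-15). FN1, the matrix glycoprotein fibronectin, had values of 158588, 158897 and 150244 at d1 and 465984, 496034 and 474206 at d10 (log2 fold change 1.62 ± 0.024 (SE), adjusted p = 2.89e-30). The d10 libraries lay above every d1 library for all 3 genes. NCAM1, a neural and mesenchymal adhesion molecule, was low at both times, with means of 7.19 and 15.4, and no longer passed with DESeq2 (adjusted p = 0.09557) or without the third d1 (0.08511) or the second d10 library (0.05377). VIM, the intermediate filament vimentin, rose by less than 2-fold, from 31358, 30834 and 31609.8 to 53111, 53721 and 52325 (log2 fold change 0.76 ± 0.02 (SE), adjusted p = 1.75e-23).

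The d1 values of these genes were already above untreated cells. CDH11 had a mean of 0.613 at d0, CDH2 of 11, FN1 of 4243 and VIM of 5181. The step from d0 to d1 in FN1 was followed by a mean of 432606 at d4, close to the 478741 of d10. CDH11 instead had a mean of 192 at d4, 285 at d7 and 756 at d15, all below d10, and of 2238 at d20, above d10. Its d7 libraries were uneven, at 126, 136 and 595. No test was run on these other timepoints.

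Of the transcription factors that drive EMT, 2 of 17 tested were called higher and none lower, and 9 were higher and 4 lower at any size. ZEB1, a zinc-finger repressor of epithelial genes, had values of 37.6, 41 and 55.6 at d1 and 175, 204 and 175 at d10 (log2 fold change 2.04 ± 0.14 (SE), adjusted p = 1.87e-13), from a mean of 5.71 untreated. FOXC2, a forkhead factor of mesenchymal tissue, had means of 12.9 and 40.9 (log2 fold change 1.61 ± 0.24 (SE), adjusted p = 1.50e-06). The related repressor ZEB2 rose by less (log2 fold change 0.67 ± 0.19 (SE), adjusted p = 0.00419), from 30.3, 24.6 and 33.7 to 45.8, 43.7 and 52.8, and so did TWIST1, a basic helix-loop-helix factor (log2 fold change 0.48 ± 0.10 (SE), adjusted p = 1.04e-04). SNAI2, a zinc-finger repressor also used by basal cells, did not pass the test (log2 fold change -0.059 ± 0.026 (SE), adjusted p = 0.0602), although it passed as slightly lower with edgeR (adjusted p = 0.00933) and after rescaling to equal totals (0.00341). Its values were 6260.0, 6309 and 6268 at d1 and 5953, 5881 and 6260.1 at d10, against a mean of 1248 at d0. The factors thus moved unequally: ZEB1 separated between the timepoints while SNAI2, already above d0 at d1, differed by a log2 fold change of -0.059.

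The transcription and splicing factors that keep epithelial identity were lower at d10. Of 18 tested, 7 were called lower and none higher, 14 were lower and 1 higher at any size, and the median log2 fold change was -0.754. GRHL3, a grainyhead factor of epithelial barrier genes, had values of 36.6, 30.8 and 28.8 at d1 and 5.97, 6.8 and 3.91 at d10 (log2 fold change -2.35 ± 0.30 (SE), adjusted p = 1.10e-07). ZNF750, a regulator of epidermal differentiation, had values of 20.9, 18.5 and 17.9 at d1 and 0, 8.75 and 5.87 at d10 (log2 fold change -2.30 ± 0.52 (SE), adjusted p = 4.74e-04); without the first d10 library, which had no read, the log2 fold change was -1.29. OVOL1, a repressor that opposes ZEB1, had values of 127, 129 and 138 at d1 and 22.9, 34 and 23.5 at d10 (log2 fold change -2.27 ± 0.16 (SE), adjusted p = 6.06e-13). For each of these genes all d10 libraries were below all d1 libraries. The ETS factors EHF and ELF3 fell to means of 138 and 12.1 from 479 and 37.8, TFAP2C to 48.4 from 110.3 and the RNA-binding protein RBM47 to 33.4 from 91.1. Core factors fell by less than 2-fold. GRHL2, which maintains E-cadherin, had a log2 fold change of -0.87 ± 0.044, the splicing regulator ESRP1 of -0.46 ± 0.03 and the basal factor TP63 of -0.44 ± 0.026, with TP63 at 4945, 4943 and 4889 at d1 and 3652, 3622 and 3621 at d10. Not all of these factors fell steadily with time. At d4 and d15 the means were 4792 and 4224 for ESRP1, 5542 and 5389 for TP63 and 36 and 62.2 for ZNF750, above d1. GRHL2 was at 1018.5 and 942, below its 1071 at d1. These other timepoints were not tested.

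Junction genes followed with the tight junction list foremost. Of 13 tight junction genes tested 4 were called lower (CLDN1, CLDN4, OCLN and CXADR) and none higher, and 10 were lower at any size, with a median of -0.539. CLDN1, a claudin that seals the space between cells, had values of 208, 183 and 178 at d1 and 48.8, 34 and 32.3 at d10 (log2 fold change -2.30 ± 0.14 (SE), adjusted p = 2.78e-14). OCLN, occludin, had values of 140.2, 139 and 151 at d1 and 49.8, 52.5 and 55.7 at d10 (log2 fold change -1.43 ± 0.12 (SE), adjusted p = 6.02e-11). CLDN4 had values of 369, 352 and 373 at d1 and 126, 132 and 109 at d10 (log2 fold change -1.57 ± 0.087 (SE), adjusted p = 1.52e-15). In all 3 the groups stood apart, and CXADR, a junction-associated receptor, fell from a mean of 49 to 18.9. CLDN1 was at 1253 untreated and at 208, 245 and 222 at d4, d15 and d20, so its d10 mean was the lowest of the course.

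Adherens junctions and desmosomes shifted less. Of 12 adherens junction genes, EPCAM and PVRL4 were called lower and PVRL3 higher. CDH1, the E-cadherin whose loss is the usual mark of EMT, had values of 6781, 6904 and 6464 at d1 and 3618, 3689 and 3855 at d10 (log2 fold change -0.85 ± 0.028 (SE), adjusted p = 5.08e-21), a 1.81-fold decrease with clearly separate groups. EPCAM, an epithelial adhesion molecule, had values of 1061, 1074 and 1075 at d1 and 425, 464 and 473 at d10 (log2 fold change -1.24 ± 0.049 (SE), adjusted p = 3.86e-19). PVRL4, the nectin of epithelia, fell to a mean of 35.6 from 81.7, while PVRL3, another nectin, rose to 137 from 61.6. Of 12 desmosome genes the plakins EVPL (-1.71 ± 0.091) and PPL (-1.14 ± 0.047) were called lower, and 9 were lower at any size, DSG3 by 0.70 and DSP by 0.32 on the log2 scale. Not all of these genes fell steadily with time. At d15 the means of DSG3, DSP, PPL and PVRL4 were 10408, 28845, 4245 and 350, above d1, and CDH1 was at 6337. EPCAM and EVPL, at 392 and 116, stayed below d1. At d20 CDH1 was at 2868 and DSG3 at 2544. These other timepoints were not tested. The 9 hemidesmosome genes included none called and ITGB4, the integrin of hemidesmosomes, was lower (-0.29 ± 0.02).

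The sequences before the starts of 4 of these genes are shown because ZEB and SNAI factors bind the E-box CACCTG, or CAGGTG on the other strand. They were chosen after the values were seen, and are RefSeq windows of GRCh38.p14 from 250 bases before to 50 bases after the start, with each E-box in capitals; OCLN and GRHL3 have 2 starts in the table, of which the first is shown. The windows lie at chr5:69492297-69492596 on the plus strand for OCLN, chr1:24319107-24319406 on the plus strand for GRHL3, chr1:152983831-152984130 on the plus strand for SPRR1A, a cornified envelope gene described below, and chr3:190322397-190322696 on the minus strand for CLDN1.
OCLN: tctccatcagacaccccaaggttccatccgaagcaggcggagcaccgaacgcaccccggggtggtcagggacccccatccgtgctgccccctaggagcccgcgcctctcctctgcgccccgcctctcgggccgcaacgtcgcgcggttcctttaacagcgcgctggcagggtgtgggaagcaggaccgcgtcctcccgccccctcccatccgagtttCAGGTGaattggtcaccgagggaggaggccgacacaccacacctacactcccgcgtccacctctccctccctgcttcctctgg
GRHL3: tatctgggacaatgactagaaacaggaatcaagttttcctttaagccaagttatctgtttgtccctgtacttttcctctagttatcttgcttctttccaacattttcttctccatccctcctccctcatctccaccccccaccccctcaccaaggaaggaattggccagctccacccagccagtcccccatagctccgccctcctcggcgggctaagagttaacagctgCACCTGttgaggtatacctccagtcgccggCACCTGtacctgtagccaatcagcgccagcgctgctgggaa
SPRR1A: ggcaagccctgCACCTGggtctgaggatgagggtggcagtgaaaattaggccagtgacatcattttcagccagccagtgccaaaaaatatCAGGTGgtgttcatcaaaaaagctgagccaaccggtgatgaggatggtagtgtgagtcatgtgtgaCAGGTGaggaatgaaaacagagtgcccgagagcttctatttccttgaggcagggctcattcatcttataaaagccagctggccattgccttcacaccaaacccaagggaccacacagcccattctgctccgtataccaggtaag
CLDN1: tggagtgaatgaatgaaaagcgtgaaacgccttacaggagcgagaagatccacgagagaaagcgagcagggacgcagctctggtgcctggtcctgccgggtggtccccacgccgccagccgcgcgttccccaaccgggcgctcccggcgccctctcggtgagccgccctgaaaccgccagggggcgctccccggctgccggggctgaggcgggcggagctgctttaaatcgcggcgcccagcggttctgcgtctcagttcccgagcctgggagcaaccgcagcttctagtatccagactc
OCLN holds 1 E-box, starting at base -33 from the start, GRHL3 holds 2, at -21 and 10, and SPRR1A holds 3, at -239, -160 and -94. The CLDN1 window holds neither spelling, which says nothing about these factors at the gene. An E-box of this kind stands in 20.6% of all 35116 windows, and only 69.6% of the genes compared have a window under their symbol, so no share of the called genes is given. Windows were looked up only for the anchor genes, the largest changes and the largest of each list. Of the others of these called lower with a single window under their symbol, CA9 and LCN2 held an E-box. BTG2, CLDN4, CXCL14, FGFR3, GNAO1, IFI44L, ITGB8, MMP10, NOTCH3, NPNT, SERPINB2 and WNT4 held none. The 4 windows shown thus do not stand for the called genes. The matches are a description of the letters, not sites.

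**Figure D3:**
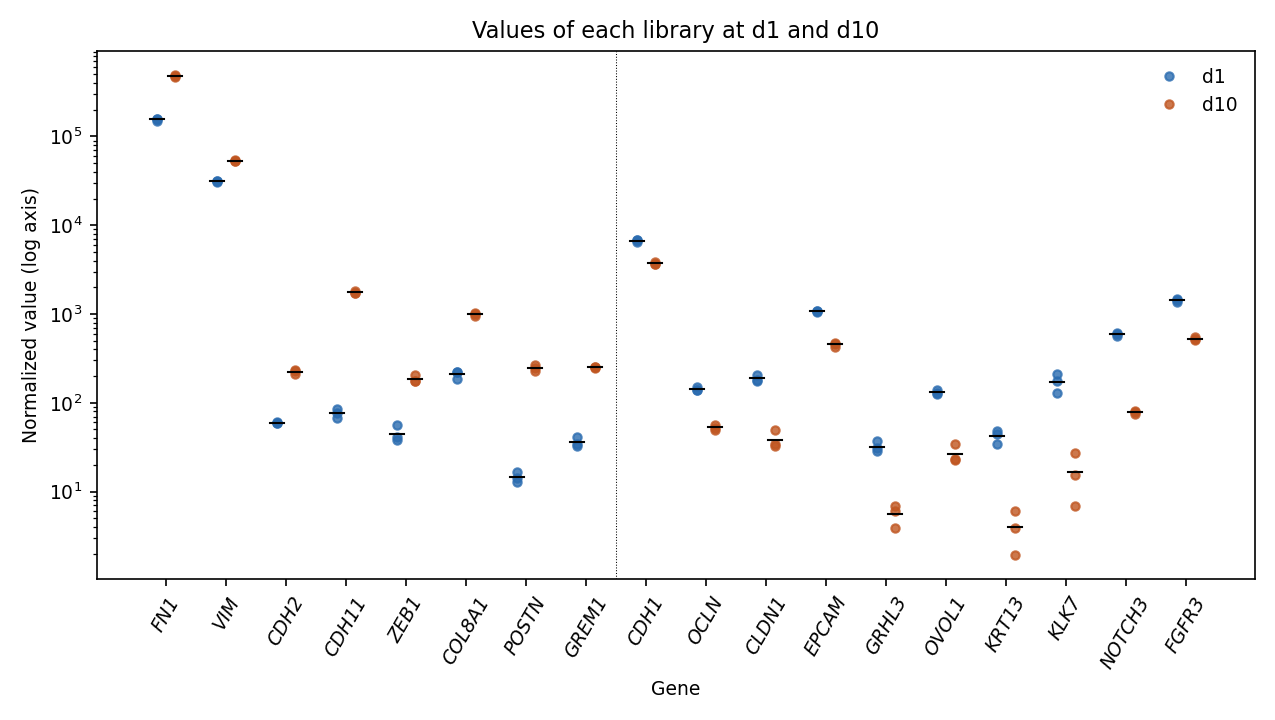
Normalized value of each library (points, log axis) at d1 (blue) and d10 (orange) with the mean of 3 libraries as a short line; 8 genes higher at d10 stand left of the dotted line and 10 lower ones right of it. In none of the 18 genes do the points of d1 and d10 overlap.

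The largest shift of any list was in squamous differentiation. Of 23 cornified envelope and squamous differentiation genes tested, 15 were called lower and none higher, 20 were lower at any size, and the median log2 fold change was -1.367. KLK7, a protease of the shedding epidermis, had values of 128, 208 and 176 at d1 and 26.9, 15.6 and 6.84 at d10 (log2 fold change -3.45 ± 0.26 (SE), adjusted p = 2.93e-12), the largest decrease of all genes compared. SPRR1A, a cornified envelope precursor with near-identical family members, had values of 43.9, 32.8 and 26.8 at d1 and 2.99, 3.89 and 4.89 at d10 (log2 fold change -2.84 ± 0.32 (SE), adjusted p = 9.86e-09). S100A8, a calcium-binding alarmin, had values of 42.9, 31.8 and 28.8 at d1 and 11.9, 6.8 and 11.7 at d10 (log2 fold change -1.69 ± 0.27 (SE), adjusted p = 5.91e-06), and its partner S100A9 means of 161 and 39.6. These genes were separate between the groups in every library. The others called were SPRR1B, TGM1, KLK5, KLK8, KLK10, SBSN, CALML3, SERPINB2, SERPINB13, PI3 and A2ML1, at log2 fold changes between -2.38 (SERPINB2) and -1.28 (CALML3). IVL, involucrin, fell just short of 2-fold, with values of 1275, 1361 and 1359 at d1 and 629, 693 and 723 at d10 (log2 fold change -0.97 ± 0.047 (SE), adjusted p = 7.22e-17). IVL was at 109 untreated, so it remained above d0 at d10, while KLK7 (516 at d0) and SPRR1A (242) had means well below d0.

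Among 18 keratins 5 were called lower (KRT13, KRT81, KRT6B, KRT16 and KRT17), none higher and 11 lower at any size, with a median of -0.499. KRT13, a keratin of stratified epithelia, had values of 48.1, 44.1 and 34.7 at d1 and 5.97, 1.94 and 3.91 at d10 (log2 fold change -3.21 ± 0.32 (SE), adjusted p = 1.37e-09). KRT17, a stress keratin of basal cells, had values of 30367, 29411 and 29539.7 at d1 and 13034, 14213 and 12669 at d10 (log2 fold change -1.16 ± 0.028 (SE), adjusted p = 1.40e-24). Its mean was 186677 at d15 and 48718 at d20, both above d1. KRT81 had means of 242 and 74.3, KRT6B of 693 and 265 and KRT16 of 1968 and 868. The basal pair KRT5 and KRT14 fell by less, at -0.52 ± 0.02 and -0.47 ± 0.021, and the simple-epithelial KRT18 did not pass the test (-0.041 ± 0.025, adjusted p = 0.188). KRT18 passed as slightly lower with edgeR (adjusted p = 0.03706), after rescaling to equal totals (0.01185) and under quantile normalization (0.00134). KRT6B, KRT14, KRT16, KRT17 and KRT81 have close paralogs or pseudogenes that can share reads, so their levels are uncertain.

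Some matrix genes rose, among them matricellular, elastic fibre and collagen genes. Of 27 matricellular, proteoglycan and elastic fibre genes tested 8 were called higher and 1 lower (MATN2), 13 were higher at any size, and the median was 0.281. POSTN, periostin, had values of 16.7, 14.4 and 12.9 at d1 and 249, 225 and 266 at d10 (log2 fold change 3.99 ± 0.15 (SE), adjusted p = 1.17e-19); it was at 0 in all d0 libraries. GREM1, a secreted BMP antagonist, had values of 34.5, 41 and 32.8 at d1 and 249.8, 246 and 253 at d10 (log2 fold change 2.76 ± 0.12 (SE), adjusted p = 6.27e-18). FBN1, the microfibril protein fibrillin, had values of 59.6, 56.4 and 64.5 at d1 and 216, 231 and 242 at d10 (log2 fold change 1.92 ± 0.11 (SE), adjusted p = 3.33e-15). No library of d1 reached those of d10 in these genes. HAS2, a hyaluronan synthase, had values of 3.14, 2.05 and 4.96 at d1 and 42.8, 32.1 and 36.2 at d10, and the proteoglycan VCAN means of 11.2 and 96.8. SPOCK1, FBLN5 and FBN2 rose by 1.27, 1.32 and 1.11 on the log2 scale; FBN2 fell short of 2-fold without the first d10 library. MATN2, a basement-membrane-associated matrilin, fell from 55.8 to 18 and TNC, tenascin, by less than 2-fold from 2783 to 1802.

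ACAN, the cartilage proteoglycan aggrecan, had values of 20.9, 11.3 and 10.9 at d1 and 112, 103 and 129 at d10 (log2 fold change 2.97 ± 0.21 (SE), adjusted p = 4.16e-13). Of 15 fibrillar and associated collagens COL8A1 and COL6A3 were called higher and COL2A1 lower, with 9 higher at any size and a median of 0.377; quantile normalization called 5 higher. COL8A1, a short-chain collagen, had values of 224, 185 and 223 at d1 and 995, 1032 and 957 at d10 (log2 fold change 2.24 ± 0.066 (SE), adjusted p = 2.34e-22). COL6A3 rose from a mean of 109 to 266, and COL2A1, low at both times, went from 25.8 to 11.1. The call of COL2A1 was lost without the second d10 library. COL1A1, the main interstitial collagen, rose by 0.23 only, with values of 3477, 3255 and 3271 at d1 and 3791, 4089 and 3829 at d10, while COL3A1 was low and its groups overlapped (adjusted p = 0.283). COL5A1 stayed under the minimum, with 3.14, 1.03 and 2.98 at d1 and 14.9, 15.6 and 18.6 at d10.

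The basement membrane list (15 genes) and the crosslinking list (19) held no called gene. COL4A1 rose by 0.21 (adjusted p = 8.59e-09), the crosslinker LOX fell by 0.76 to a mean of 993, and LOXL2 did not pass the test (-0.0083 ± 0.031). Of 21 metalloproteinases and related genes 3 were called higher and 2 lower. MMP2, the gelatinase of stromal cells, had values of 413, 398 and 379 at d1 and 853, 908 and 880.0 at d10 (log2 fold change 1.15 ± 0.052 (SE), adjusted p = 1.07e-17). MMP16 rose from a mean of 3.07 to 23.5, with at most 4 reads in any d1 library, and ADAMTS12 from 37.5 to 102. MMP28, a protease of epithelia, fell from 439.5 to 189 and MMP10 from 20.7 to 8.21; MMP10 lost its call with all 21 libraries in the fit (adjusted p = 0.06661) and fell short of 2-fold without the third d1 (-0.9946) or the second d10 library (-0.857). MMP9 varied among the d10 libraries, at 2729.8, 3898 and 2186 against 2968, 2769 and 2886 at d1, and MMP1 overlapped between groups. The log2 fold change of MMP9 was -0.0092 with all libraries, -0.2339 without the second d10 library and 0.1831 without the third.

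Of the plasminogen system, SERPINB2, an inhibitor also of squamous cells, had values of 215, 186 and 171 at d1 and 40.8, 32.1 and 34.2 at d10 (log2 fold change -2.38 ± 0.14 (SE), adjusted p = 3.07e-15). PLAU, the urokinase protease, rose by 0.19 and its receptor PLAUR did not pass the test. Of 15 integrin subunits the leukocyte-associated ITGB2 was called higher, from 13.3 to 32, and ITGB8 lower, from 399 to 189; without the second d1 library the ITGB8 call was lost. ITGA5, the fibronectin receptor chain, fell by 0.38, and ITGB6 and ITGB1 did not pass the test.

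**Figure D4:**
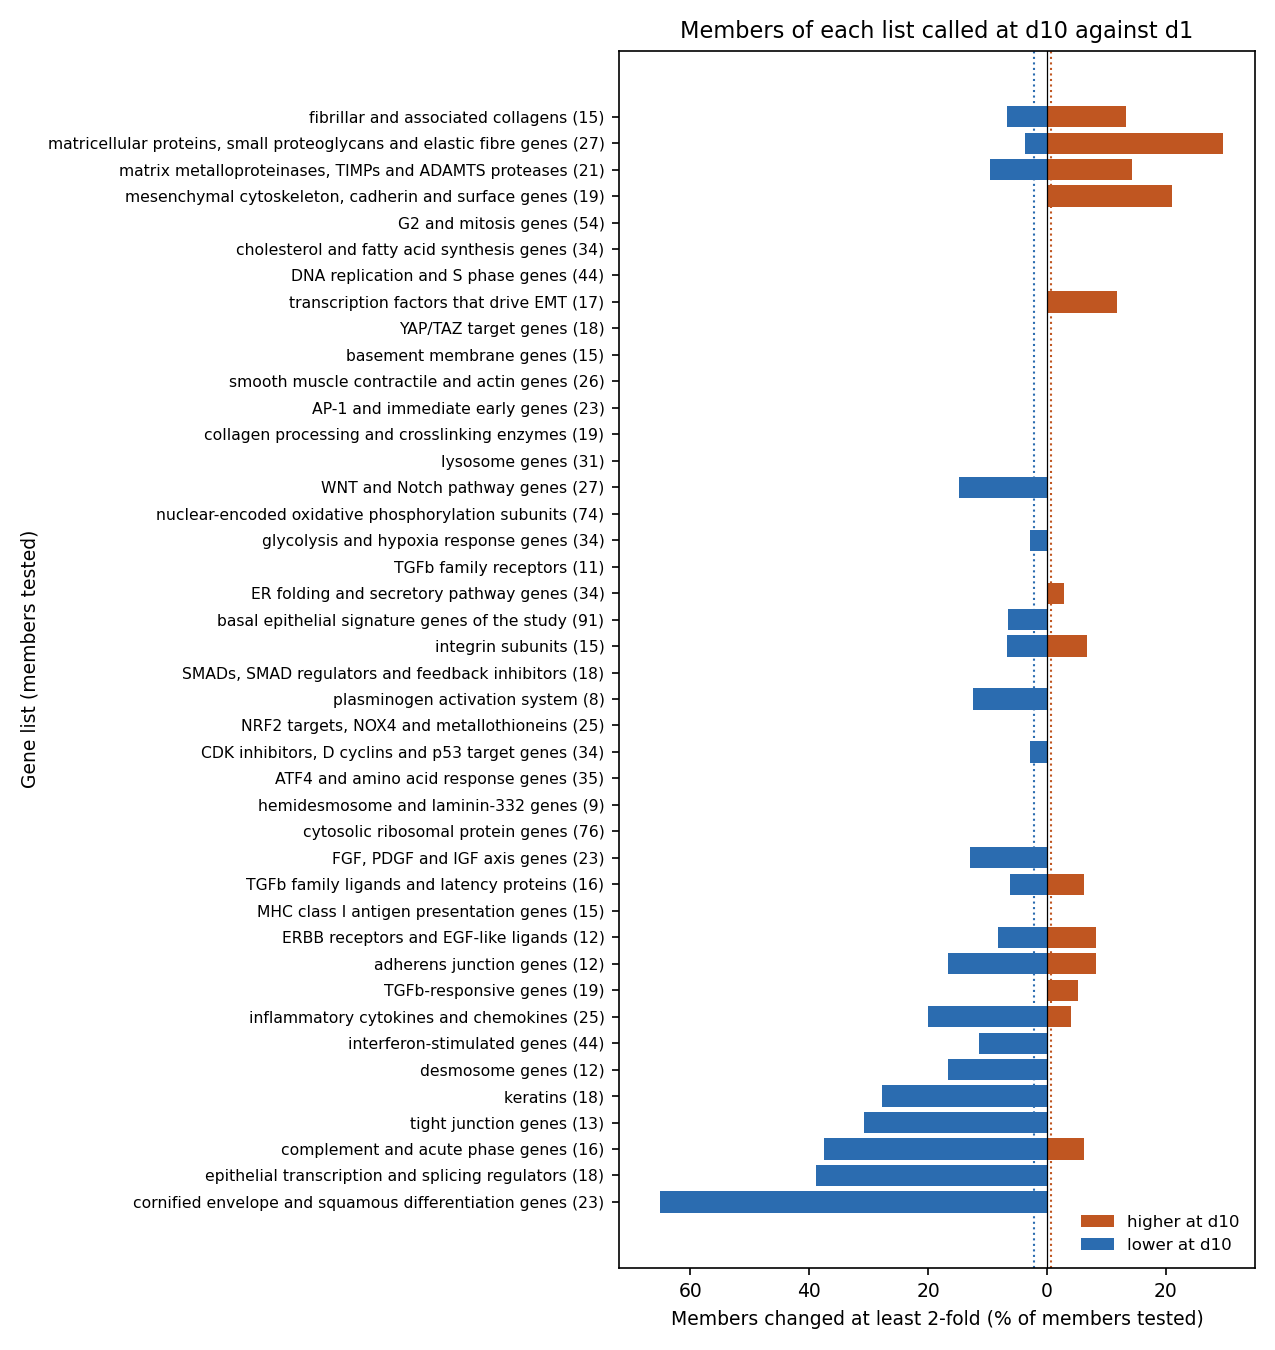
Share of each gene list's tested members called at least 2-fold higher (orange, right) or lower (blue, left) at d10; lists are ordered by median log2 fold change from bottom to top, the number of members tested stands in parentheses, and dotted lines mark the shares over all genes, 0.659% and 2.1%. The cornified envelope list reaches farthest left, with 15 of 23 members, and the matricellular list farthest right, with 8 of 27.

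Most RNAs of TGFβ pathway components changed by less than 2-fold, as did most genes compared, of which 2.76% were called. The 11 receptors and 18 SMADs and regulators held no called gene, with medians of -0.004 and -0.039. At any size 4 SMADs and regulators were higher and 7 lower, and 4 ligands and latency proteins were higher and 6 lower. Over all genes these shares were 27.6% and 20.8%. TGFBR2, the ligand-binding receptor, rose to values of 3029, 3031 and 3029 at d10 from 2214, 2354 and 2324 at d1 (log2 fold change 0.40 ± 0.03 (SE), adjusted p = 2.66e-12). TGFBR1, its signaling partner, went the other way (-0.19 ± 0.045), and SMAD3 fell to a mean of 1309 from 1720.0. Of the feedback inhibitors, SMAD7 had values of 712, 680.0 and 640.1 at d1 and 518, 542 and 569 at d10 (log2 fold change -0.32 ± 0.054 (SE), adjusted p = 1.10e-05), and SKIL was lower (-0.29 ± 0.046) while PMEPA1 was higher (0.43 ± 0.024). SMAD7 and PMEPA1 stayed above untreated cells at both times, whose means were 108 and 348. Of 16 ligands and latency proteins BMP4, a BMP ligand, was called higher, from 17 to 39.9, and LTBP3, a latency protein, lower, from 390.3 to 188. TGFB1 fell by 0.25 and INHBA, the activin A subunit, by 0.15, and TGFB2 did not pass the test.

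Of 19 TGFβ-responsive genes all passed the test, 7 as higher and 12 as lower, with a median of -0.253; FN1 was the only one called. TGFBI had values of 204017, 196593 and 192814 at d1 and 141041, 143158 and 140578 at d10 (log2 fold change -0.48 ± 0.021 (SE), adjusted p = 4.65e-18), and ID1, an inhibitor of differentiation, fell by 0.50. The contractile genes (26 tested) held none called: TAGLN fell by 0.64 and TPM1 by 0.33, and ACTA2, the smooth muscle actin, had overlapping values of 359.8, 364 and 352 at d1 and 358, 417 and 356 at d10.

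Several of the largest increases were in genes outside the lists. DPYSL3, a microtubule-associated protein of migrating cells, had values of 138, 115 and 136 at d1 and 644, 586 and 615 at d10 (log2 fold change 2.24 ± 0.078 (SE), adjusted p = 1.29e-20). HECW2, a ubiquitin ligase, had values of 133, 130.2 and 149 at d1 and 541, 617 and 575 at d10 (log2 fold change 2.07 ± 0.076 (SE), adjusted p = 5.36e-20). NTM, the adhesion protein neurotrimin, had values of 203, 249 and 228 at d1 and 951, 939 and 955 at d10 (log2 fold change 2.06 ± 0.064 (SE), adjusted p = 7.48e-22). These genes did not rise steadily from d1: the mean of DPYSL3 was 61.1 at d4 and 121 at d15, below d1, and then 1242 at d20. HECW2 had means of 128 at d4 and 153 at d15, and NTM of 192 and 193, both near d1. COL8A1 followed the same course, with 244, 164 and 1207 at d4, d15 and d20.

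**Figure D5:**
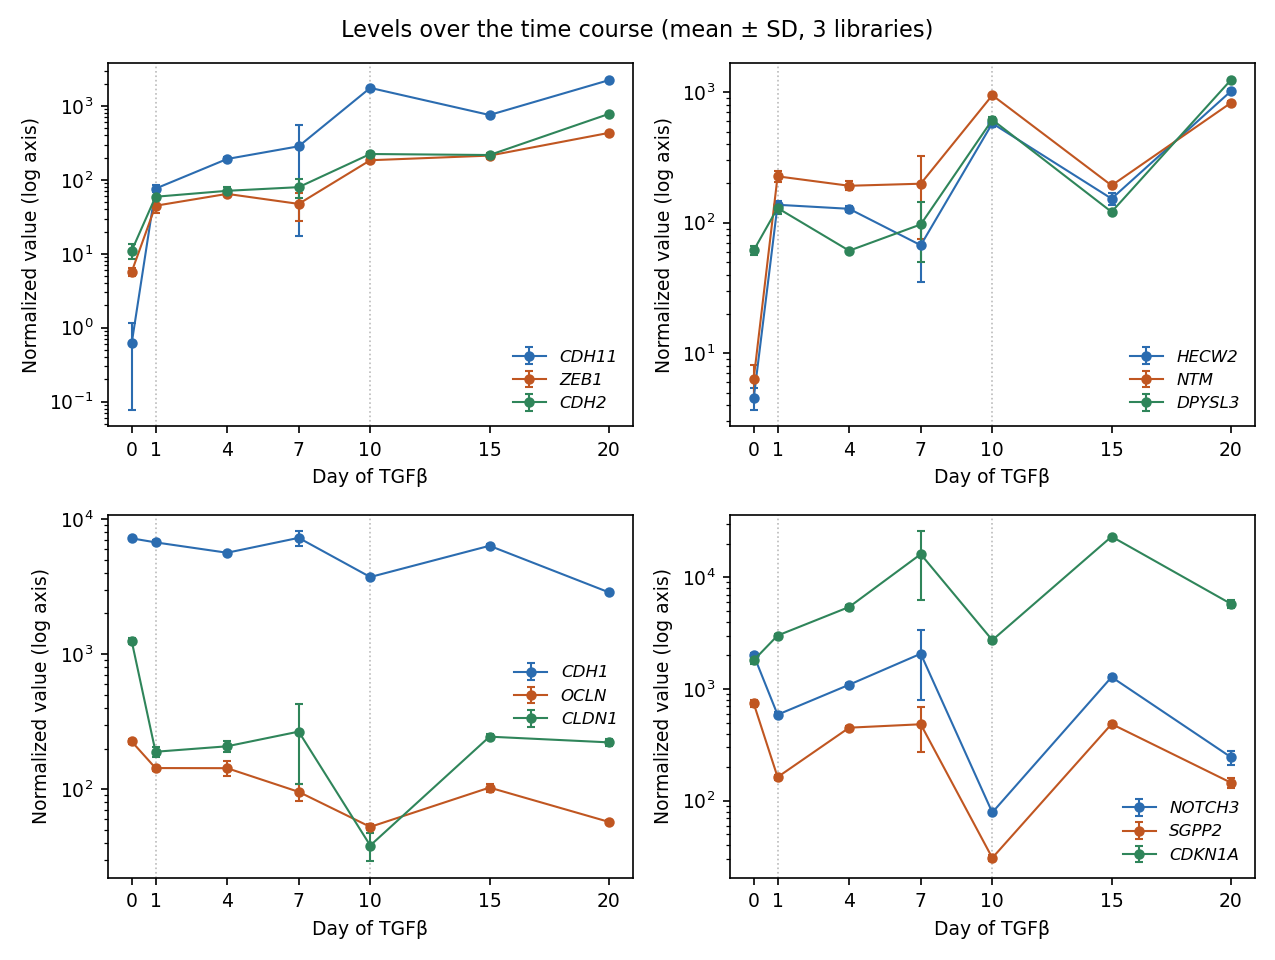
Mean normalized value ± SD of 3 libraries (log axis) over the days of TGFβ for 12 genes in 4 panels, with dotted lines at days 1 and 10; the wide error bars at d7 come with 1 library that stands apart. HECW2, NTM and DPYSL3 are highest at d10 and d20 with lower values at d15 between them, and CLDN1, NOTCH3 and SGPP2 have their lowest mean at d10.

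Receptors and signaling genes held several of the largest decreases. NOTCH3, a Notch receptor, had values of 617, 562 and 589 at d1 and 81.6, 78.7 and 75.3 at d10 (log2 fold change -2.89 ± 0.082 (SE), adjusted p = 8.56e-23). Of 27 WNT and Notch pathway genes NOTCH3, WNT4, WNT10A and SFRP1 were called lower and none higher; WNT4 fell from 36.3 to 8.18, WNT10A from 42 to 12.4 and the WNT antagonist SFRP1 from 7765 to 3513. At any size 9 genes of this list were higher and 12 lower, and the median was 0.016. The Notch ligand JAG1 fell by 0.14, the WNT antagonist DKK1 rose by 0.35, and WNT5A stayed under the minimum. NOTCH3 had a mean of 2013 untreated, 1094 at d4 and 1281 at d15, and its d10 mean was the lowest of the 7 timepoints.

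IGFBP2, which binds insulin-like growth factors, had values of 644, 505 and 589 at d1 and 83.6, 76.8 and 68.5 at d10 (log2 fold change -2.91 ± 0.094 (SE), adjusted p = 2.30e-21). FGFR3 had values of 1462, 1363 and 1442 at d1 and 526, 544 and 508 at d10 (log2 fold change -1.43 ± 0.045 (SE), adjusted p = 9.30e-22), and the ligand FGF1 fell from 322 to 121. These were the called genes among 23 of the FGF, PDGF and IGF axes, with 9 higher and 10 lower at any size and a median of -0.098. The epithelial FGFR2 fell by 0.53 and the mesenchymal FGFR1 rose by 0.65, both short of 2-fold, and IGFBP3 did not pass the test. Among 12 ERBB receptors and ligands ERBB3 was called lower, from 307 to 90.2, and the ligand AREG higher, at 97.3, 92.3 and 132 in d1 and 233, 218 and 193 in d10 (log2 fold change 1.01 ± 0.11 (SE), adjusted p = 1.56e-08). AREG lay at the 2-fold limit and fell short of it after rescaling to equal totals, with a pseudocount of 10, with edgeR or DESeq2, and without the first d1, the second d1, the first d10 or the second d10 library, with values of 0.9095 to 0.9941 in these fits. AREG also has a near-identical copy that can share its reads. EGFR and EREG did not pass the test.

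Other large decreases were in membrane and epithelial genes. MAL2, a protein of apical transport, had values of 1729, 1718 and 1742 at d1 and 292, 346 and 337 at d10 (log2 fold change -2.41 ± 0.053 (SE), adjusted p = 1.57e-25). NPNT, nephronectin of the basement membrane, had values of 213, 197 and 175 at d1 and 37.8, 36.9 and 28.4 at d10 (log2 fold change -2.48 ± 0.14 (SE), adjusted p = 1.90e-15). SGPP2, a sphingosine-1-phosphate phosphatase, had means of 163 and 30.8 (-2.37 ± 0.14), and GNAO1, a G protein subunit, of 144 and 28.5 (-2.29 ± 0.15). The d1 and d10 libraries of each were apart. MAL2 and IGFBP2 were below d1 at every later timepoint, MAL2 at 1066, 482 and 381 at d4, d15 and d20, whereas SGPP2 and GNAO1 were above d1 at d4 (451 and 286).

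Inflammatory and interferon genes were called lower more often than higher at d10. Of 25 cytokines and chemokines 5 were called lower (IL1RN, IL18, CXCL14, CXCL16 and TSLP) and 1 higher (CSF2), with a median of -0.322. IL1RN, the interleukin-1 receptor antagonist, had values of 85.8, 103 and 91.3 at d1 and 17.9, 19.4 and 23.5 at d10 (log2 fold change -2.15 ± 0.18 (SE), adjusted p = 1.53e-11). CSF2, the growth factor GM-CSF, had values of 36.6, 47.2 and 35.7 at d1 and 97.5, 123 and 89 at d10 (log2 fold change 1.35 ± 0.16 (SE), adjusted p = 2.38e-08). IL18 fell from 543 to 210.2, CXCL14 from 20.7 to 5.23, CXCL16 from 93.2 to 44.9 and TSLP from 38.5 to 16.1; CXCL16 fell short of 2-fold under quantile normalization and without the third d10 library. IL1B and IL8 did not pass the test, and IL6 had at most 2 reads in a library of either group.

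Of 16 complement and acute phase genes 6 were called lower (LCN2, PI3, SLPI, CFB, SERPINA3 and SERPING1) and 1 higher, with a median of -0.634. LCN2, the siderophore-binding lipocalin, had values of 31.4, 30.8 and 43.7 at d1 and 13.9, 6.8 and 8.8 at d10 (log2 fold change -1.78 ± 0.28 (SE), adjusted p = 3.40e-06). SERPING1 fell short of 2-fold under quantile normalization and without the second d1 or the first d10 library. The 1 call as higher was lost with libraries rescaled to equal totals and without the second d1 or the third d10 library. SAA1 and C3 fell by 0.43 and 0.26, and C3 did not pass with DESeq2 (adjusted p = 0.1407). Of 44 interferon-stimulated genes 5 were called lower (IFI44L, OASL, USP18, OAS1 and OAS2), 28 were lower and 4 higher at any size, and the median was -0.344. IFI44L had values of 18.8, 29.7 and 28.8 at d1 and 7.96, 8.75 and 7.82 at d10 (log2 fold change -1.52 ± 0.29 (SE), adjusted p = 5.96e-05), and OASL means of 56.2 and 19.6. MX1 and IFIT1, antiviral effectors, fell by 0.75 and 0.47, and ISG15 did not pass the test. The list's count called lower was 3 in place of 5 without the third d10 library, where OAS1 and OAS2 fell short of 2-fold, as OAS2 also did without the first or the second d1 library. MHC class I genes (15 tested) held none called, and B2M did not pass the test.

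Genes of the cell cycle were close in level at d1 and d10. Of 44 replication and S phase genes 26 were higher and 1 lower at any size, against 27.6% and 20.8% of all genes, and of 54 G2 and mitosis genes 45 were higher and 3 lower, with medians of 0.153 and 0.166. None reached 2-fold. The mean log2(value + 1) of the S phase genes was 10.427 at d1 and 10.574 at d10, near the 10.46 of untreated cells and above the 9.543 of d4 and 8.644 of d15. That of the G2 and mitosis genes was 11.283 at d1 and 11.439 at d10, below the 11.582 of untreated cells and the 11.61 of d20 and above the 11.014 of d4 and 10.246 of d15. MKI67, the proliferation antigen, had values of 9632, 10198 and 9104 at d1 and 10829, 11607 and 11427 at d10 (log2 fold change 0.23 ± 0.03 (SE), adjusted p = 2.10e-07). CDK1, the mitotic kinase, rose by 0.13, MCM2, a helicase subunit, by 0.083, and PCNA did not pass the test; MCM2 no longer passed after rescaling to equal totals (adjusted p = 0.134), with edgeR (0.05522) or with DESeq2 (0.1384).

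The CDK inhibitors CDKN1A and CDKN2B were lower at d10. CDKN1A, the p21 inhibitor of cyclin-dependent kinases, had values of 3103, 2917 and 3025 at d1 and 2642, 2902 and 2682 at d10 (log2 fold change -0.14 ± 0.033 (SE), adjusted p = 1.00e-03), against means of 5434 at d4 and 23196 at d15. CDKN2B, the p15 inhibitor induced by TGFβ, fell by 0.72, to a mean of 551 from 911, and CCND1, cyclin D1, rose by 0.24. Of 34 genes of CDK inhibitors, D cyclins and p53 targets only BTG2, an antiproliferative gene, was called, from 407 to 200.0; it fell short of 2-fold without the first d1 or the third d10 library.

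Metabolic and stress lists held few called genes. Over all genes 2.76% were called, and 27.6% were higher and 20.8% lower at any size. Of 34 cholesterol and fatty acid synthesis genes 20 were higher and 2 lower at any size, with a median of 0.154: HMGCS1, which makes HMG-CoA, had values of 6771, 6889.9 and 7054 at d1 and 9015, 8982 and 8892 at d10 (log2 fold change 0.38 ± 0.024 (SE), adjusted p = 3.16e-14) and SCD did not pass the test. CA9, the hypoxia-induced carbonic anhydrase, had values of 483, 441 and 494 at d1 and 90.6, 102 and 106 at d10 (log2 fold change -2.24 ± 0.085 (SE), adjusted p = 1.17e-19) and was the only gene called of 34 of glycolysis and hypoxia; VEGFA fell by 0.28 and SLC2A1 did not pass the test. CA9 was at 1781 untreated and 69.5 at d4. CREB3L1, a factor of collagen secretion, was the only one called of 34 ER and secretory genes, with values of 17.8, 27.7 and 28.8 at d1 and 86.6, 73.8 and 89 at d10 (log2 fold change 1.73 ± 0.19 (SE), adjusted p = 4.97e-09), while the chaperone HSPA5 fell by 0.19.

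Cytosolic ribosomal protein genes, many with pseudogenes, were lower in 55 of 76 and higher in none at any size, with a median of -0.093 and RPLP0 at -0.12. The 74 respiratory chain genes were split, 15 higher and 15 lower, with NDUFS1 at -0.12. Each count is 20.3% of the list, against 27.6% higher and 20.8% lower over all genes. In the amino acid response list (35 genes, 16 lower and 2 higher) ASNS was at -0.082 and TRIB3 and DDIT3 did not pass the test. The NRF2 list (25 genes) was lower in 11 and higher in 6, and HMOX1 and NQO1 did not pass the test, while NOX4 stayed under the minimum. The lysosome list (31 genes) was split 6 to 6, or 19.4% each way. GPNMB was at -0.74 (adjusted p = 0.0256), and CTSD did not pass the test. GPNMB moved to -0.4034 without the third d1 library (adjusted p = 0.2896), and also failed the test with no filter on low values, under quantile normalization, with DESeq2, with all 21 libraries in the fit and without the first d10 library. AP-1 and immediate early genes (23) held none called, with FOSL1 at 0.55 and EGR1 at 0.42. YAP/TAZ targets (18) were higher in 10 and lower in 3 at any size, and ANKRD1 stayed under the minimum. Of 42 lists other than cell type markers 17 held no called gene with limma, and the same 17 held none at 2-fold with an unadjusted p below 0.05, with edgeR or with DESeq2.

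The study drew a signature of basal epithelial genes from tumor cells, and of its 91 genes tested 6 were called lower (CRYAB, KRT6B, KRT17, SFRP1, SERPING1 and FBXO32) and none higher; 28 were higher and 40 lower at any size, with a median of -0.033. CRYAB, a small heat shock protein, had values of 210.2, 208 and 144 at d1 and 57.7, 56.4 and 54.8 at d10 (log2 fold change -1.70 ± 0.13 (SE), adjusted p = 4.54e-12). ACTN1, an actin crosslinker, fell by 0.16 to a mean of 24063, above its 10049 untreated, and ITGB1 had values of 42710.0, 42778 and 41484 and 42046, 41387 and 42270.0, which overlapped. The paper reports that almost all signature genes increased during EMT in this time course, which includes untreated cells. That span is unlike d10 against d1: the means of ACTN1 and ITGB1 were 10049 and 21116 untreated and already 26875 and 42324 at d1. Under quantile normalization 2 signature genes were called higher. FBXO32 fell short of 2-fold under quantile normalization and in 4 of the 6 fits with 1 library left out, all but those without the second d1 or the second d10 library, and SERPING1 without the second d1 or the first d10 library.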

How the data were processed

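RNA of HMLE cells was measured by RNA-seq at 7 timepoints, 3 libraries each. The values the authors deposited are a normalized signal, namely the reads of the gene divided by one size factor of the library. Whole reads were recovered from it, and 100% of the values checked lay within 0.02 of a whole number. The check covered nonzero values below a fixed limit, and larger values were rounded without it. The submitters' processing notes name STAR 2.7, Salmon 1.4 and hg19 without stating their roles, and whether strand was counted is not given in the sources used here. Columns are headed by timepoint alone and 0 columns belonged to no sample.

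Genes with a mean of at least 10 over the 3 d1 and 3 d10 libraries entered limma 3.58.1 (R 4.3.3) as log2(value + 1), with lmFit, contrasts.fit and a trended eBayes, and Benjamini-Hochberg adjustment over all 13059 genes; a call needed an adjusted p below 0.05 and at least 2-fold. No covariate was used. A gene at or below 3 reads in every library of a group counts as at the floor. Alternatives were a pseudocount of 10, no filter, the filter over all 21 libraries, equal totals, quantile normalization, all 21 libraries or all but d7 in the fit, edgeR 4.0.16 and DESeq2 1.42.0 on whole reads, no minimum fold, and each library left out. The main limma fit, edgeR and DESeq2 were tested on simulated data.

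The genes compared, the gene lists and the tests were chosen with earlier results of these data known. Named are the fixed anchor genes of each list, the 10 largest increases and 10 largest decreases among called genes with separate groups and a mean of at least 100 in the higher group, the 2 largest of each direction in each list, and members that complete a count; some list members, counted in their lists, are not reported here by name. The remaining called members of the cornified envelope, epithelial regulator, matricellular and acute phase lists, and further markers, were named after their values were seen. Promoter windows came from RefSeq. Plots were made in Python 3.11.15 by matplotlib 3.10.9.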

Additional observations from a re-analysis of the deposited data

How the results depend on the processing

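The 86 genes called higher became 51 with a pseudocount of 10, 162 with no filter on low values and 3599 with no minimum fold change, and the 274 called lower became 165, 490 and 2717; the members of the gene lists called higher and lower, 26 and 68, became 302 and 388 with no minimum fold change. All 51 and 165 genes called with a pseudocount of 10 were among those called above, and of the list members AREG, BMP4, BTG2, CFB, COL2A1, CXCL16, FBN2, FBXO32, IFI44L, ITGB2, MMP10, NCAM1, OAS2, SBSN, SERPING1 and TSLP were among those that then fell short of 2-fold. Leaving out each library in turn gave 80 to 94 genes higher and 265 to 295 lower, and equal totals, edgeR and DESeq2 stayed within 1.5 times of both counts; edgeR shared 82 of the 86 and 273 of the 274, and DESeq2 80 and 268. Calls were higher in 23.9% of cases, in 21.8% with equal totals and in 33.1% under quantile normalization. Of 2219 values of 148 named genes under the alternatives, 2136 kept direction and side of the adjusted p, 28 lost and 28 gained the threshold, and 27 changed sign, none of them for a gene called at 2-fold. The sign changes under other scalings or tools were those of HMOX1 (0.01915), IL1B (0.02558), ISG15 (0.05999) and SCD (0.04143) with quantile normalization, IGFBP3 with equal totals (-0.02949), quantile normalization (-0.0374), edgeR (-0.01647) and DESeq2 (-0.01576), and MMP9 with edgeR (0.01102) and DESeq2 (0.01115). Over the fits with 1 library left out, the value ranged across 0 for ACTA2 (-0.006427 to 0.1073), EREG (-0.02705 to 0.01775), HMOX1 (-0.05823 to 0.02762), IGFBP3 (-0.01952 to 0.02763), IL1B (-0.1069 to 0.05979), ISG15 (-0.1444 to 0.0257), LOXL2 (-0.02623 to 0.02399), MMP9 (-0.2339 to 0.1831), SCD (-0.02246 to 0.006027) and TGFB2 (-0.2431 to 0.004835). With all 21 libraries in the fit, ASNS, CDKN1A, GPNMB, IFIT1, INHBA, MCM2, MKI67, MMP10, MX1, NDUFS1 and TGFBR1 no longer passed; d7 holds the library that stands apart, and without d7 only MCM2 of them did not. INHBA also failed with DESeq2. With equal totals B2M, CTSD, ITGB1, ITGB6, KRT18, NQO1, SCD, SLC2A1 and SNAI2 gained the threshold as lower. All of these but ITGB1 and SCD also did so under quantile normalization, and CTSD, KRT18, NQO1, SLC2A1 and SNAI2 with edgeR. SNAI2 also passed with DESeq2. In fits with 1 library left out EGFR, MMP9, PCNA, SLC2A1 and SNAI2 gained the threshold. Without the third d1 library ASNS (adjusted p = 0.06322), IFIT1 (0.07621) and GPNMB (0.2896) no longer passed, without the first d10 library GPNMB (0.07337) and ASNS (0.1133), and without the third d10 library ASNS (0.1156) and MCM2 (0.05052). Counts of lists also moved: 1 EMT factor was called lower without the first d1 or the third d10 library, 1 YAP/TAZ target higher without the second d1 or the third d10, 1 signature gene higher without the second d1 or the second d10, 2 matricellular genes lower without the third d1, 1 metalloproteinase gene lower without the third d1 or the second d10, and 2 CDK inhibitor and p53 genes lower without the second d10. The cause of these shifts was not tested. At 18847917 to 22667754 reads per library, genes under about 10 normalized reads were not compared, and counting error limits those just above. No paired analysis was possible because a column's heading gives its timepoint and no replicate.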
